A study of Rattus norvegicus with 27 samples.

Results

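Chromatin modifiers and remodelers are the proteins that write, erase and read chemical marks on histones and DNA and that move nucleosomes. They were followed here in tail motor neurons of adult male Wistar rats whose sacral spinal cord had been cut. The members were the genes of 16 families, chosen by symbol (Kat, Kmt, Setd, Ezh, Prmt, Dnmt, Tet, Hdac, Sirt, Kdm, Brd, Ing, Smarc, Chd, Hmgb and Hmgn), and the brightest probe set that names a single gene stood for each gene. This gave 83 genes of 9769 on the array, measured by 120 of 12913 probe sets. Another 6 probe sets that match these families name several genes each and were left out, so that Prmt1, Hmgb2 and Hmgn5 have no value of their own. For Kmt5a and Hmgb1 the set left out is brighter than the set used. Its mean signal is 7.59 against 6.79 for Kmt5a and 9.62 against 8.30 for Hmgb1, and its difference is not given here. Members were taken by symbol and not by a measured difference, though the choice was made with earlier results of these data known. The Spi-21 group (8 arrays) and the Spi-60 group (8 arrays) are rats whose cord was cut at S2, with 1 to 2 mm of tissue taken out, and examined 21 and 60 days later. The ShamC-21 group (6 arrays) and the ShamC-60 group (5 arrays) had the vertebrae opened over an intact dura, and all 4 groups received buprenorphine and the retrograde tracer Fluorogold. Each sample is RNA of laser-dissected neurons, 50 to 200 by the design text and 100 to 200 by the sample labels, amplified in 2 rounds before hybridisation to Affymetrix rat arrays. The labels call the samples biological replicates and tie none to an animal or a batch, and each p-value rests only on how these samples vary.

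Acetyl groups on histone tails loosen the hold of histones on DNA and are bound by bromodomain proteins, whereas deacetylases take them off. Methyl groups on histones and on DNA mark active or silent genes, depending on the site. Remodelers of the BAF, ISWI, CHD and NuRD complexes use ATP to slide, space or evict nucleosomes, and neurons exchange several BAF subunits as they mature. These genes are studied in the nervous system because mutations in many of the human ones, such as CHD8, KMT2D, SETD5 and KDM5C, cause disorders of brain development.

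Promoters are shown for 4 members, the 2 per direction with the smallest p over both days among the 31 members whose RefSeq promoter window lies within 50 bases of the annotated gene start. Each run is the 250 bases before the window's start site in the GRCr8 build, read 5′ to 3′ on the gene's own strand. All 4 genes lie on the minus strand. Kat7 and Hdac5 were higher after transection and Chd6 and Brd1 lower. Capitals mark 3 of the motifs searched on both strands: the GC box GGGCGG, bound by Sp factors, the CCAAT box CCAAT and the ETS core CCGGAAG. The NRF1 consensus and the cyclic AMP response element TGACGTCA were also searched and were not found in these 4 windows.
Kat7, chr10:80752388-80752637: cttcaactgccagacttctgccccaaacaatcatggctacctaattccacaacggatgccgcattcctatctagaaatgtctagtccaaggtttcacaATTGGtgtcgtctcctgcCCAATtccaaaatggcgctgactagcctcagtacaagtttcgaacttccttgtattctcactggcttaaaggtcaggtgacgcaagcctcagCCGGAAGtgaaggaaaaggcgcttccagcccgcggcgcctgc
Hdac5, chr10:87688055-87688304: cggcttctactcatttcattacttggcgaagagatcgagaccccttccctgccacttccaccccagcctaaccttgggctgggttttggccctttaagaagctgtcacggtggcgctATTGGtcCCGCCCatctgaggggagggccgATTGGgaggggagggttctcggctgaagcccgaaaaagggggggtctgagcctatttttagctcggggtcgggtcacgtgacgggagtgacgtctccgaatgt
Chd6, chr3:170177436-170177685: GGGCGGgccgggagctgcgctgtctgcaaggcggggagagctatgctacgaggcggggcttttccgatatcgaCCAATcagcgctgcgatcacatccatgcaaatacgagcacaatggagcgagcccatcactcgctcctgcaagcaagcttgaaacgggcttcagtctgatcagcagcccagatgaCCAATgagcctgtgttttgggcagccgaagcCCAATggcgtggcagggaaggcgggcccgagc
Brd1, chr7:121701701-121701950: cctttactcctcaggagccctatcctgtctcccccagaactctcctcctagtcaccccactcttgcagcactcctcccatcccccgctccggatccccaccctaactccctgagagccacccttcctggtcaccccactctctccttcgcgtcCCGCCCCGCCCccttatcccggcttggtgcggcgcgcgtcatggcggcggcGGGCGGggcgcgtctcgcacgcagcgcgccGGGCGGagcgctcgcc

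Chd6 held 1 GC box and 3 CCAAT boxes, Hdac5 held 1 and 2, Brd1 held 4 GC boxes and no CCAAT box, and Kat7 held 2 CCAAT boxes and 1 ETS core. In Brd1 a pair of GC boxes shares a base, and no CCAAT box overlapped a GC box. A GC box stood in 20 of the 31 member windows (64.5%), against 27.1% of the 20884 windows of all genes chosen in the same way. It stood in 7 of 8 members that were higher, 6 of 7 that were lower and 7 of 16 that were not called. A CCAAT box stood in 54.8% of member windows against 34.6% of all, and an ETS core in 16.1% against 6.52%. The median GC content was 60.0% in the members and 50.0% in all genes. Higher and lower members thus held a GC box at like shares, and a match of letters is a description of the sequence, with no test.

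Transected and sham arrays also differed in values that are not members. The 3′ minus 5′ difference of the beta-actin controls was 3.21 ± 0.285 (SD, n = 8) in Spi-21 against 2.28 ± 0.229 (SD, n = 6) in ShamC-21, and 3.27 ± 0.303 (SD, n = 8) in Spi-60 against 2.22 ± 0.182 (SD, n = 5) in ShamC-60, with an exact permutation p adjusted over 22 tests of 0.0057 at each day. That of the GAPDH controls split the Spi-21 arrays, which lay between 2.57 and 3.47 for replicates 1 to 4 and between 0.985 and 1.46 for the other 4. It averaged 2.13 ± 0.950 in Spi-21 against 2.97 ± 0.218 in ShamC-21 (SD, exact permutation, adjusted p = 0.111), and 3.38 ± 0.365 in Spi-60 against 2.57 ± 0.247 in ShamC-60 (SD, exact permutation, adjusted p = 0.0137). The mean of 12 motor neuron markers lay between 10.56 and 11.1 in Spi-21, 10.9 and 11.28 in ShamC-21, 10.84 and 11.13 in Spi-60, and 9.15 and 11.05 in ShamC-60, where replicate 4 is the low array. None of these 12 was called at 21 days and 4 were higher at 60 days. Astrocyte markers ran from 8.21 to 8.99 in Spi-21 against 7.55 to 8.86 in ShamC-21 (4 of 11 called, all higher), and from 8.57 to 9.30 in Spi-60 against 8.21 to 9.39 in ShamC-60 (1 of 11, higher). Oligodendrocyte markers had 2 of 10 and 1 of 10 called, and microglial markers 2 of 12 and 1 of 12, all higher. The mean of 4 blood markers was lower in Spi-60 (6.04 ± 0.205, SD, n = 8) than in ShamC-60 (6.62 ± 0.607, SD, n = 5; exact permutation, adjusted p = 0.0484). The part of RNA quality in the members' differences was not tested. The beta-actin difference was at least 2.86 in Spi-21 and at most 2.65 in ShamC-21. It was at least 2.76 in Spi-60 and at most 2.42 in ShamC-60. This measure and transection thus cannot be told apart in these arrays. The part of other cells was not tested beyond a fit with the glial marker mean as a covariate. In that fit 24 members were called at each day (28.9%), against 23.1% of all probe sets at 21 days and 21.6% at 60 days.

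About 3 in 10 of the chromatin genes were called at each day, in both directions. At 21 days 25 of 83 passed an adjusted p of 0.05 in limma, 10 higher and 15 lower (30.1%, against 22.6% of all probe sets). At 60 days 26 passed, 13 higher and 13 lower (31.3%, against 19.1% of all). Over the mean of both days 45 passed, 21 higher and 24 lower (54.2%, against 39.4% of all, with 20.4% higher and 19% lower). The median log2 difference of the 83 genes was −0.03 at 21 days and −0.09 at 60 days, with 0.01 and 0.02 over all probe sets. The 15 lower members at 21 days compare with 11.2% of all probe sets called lower there, and the 10 higher with 11.3%. At 60 days the shares of all probe sets were 8.92% lower and 10.2% higher. Taken by the brightest probe set of each of the 9769 genes, the shares called were 22.6% at 21 days, 20.1% at 60 days and 40.1% over both. The members are brighter than most: 55 lay above the median signal, and with only such probe sets tested 32.7% of them were called at 21 days against 28.1% of all, and 40.0% at 60 days against 32.2%.

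At 21 days all 8 transected arrays lay above every sham array for 4 members (Chd4, Chd8, Kmt2d and Smarca4; 3.07% of all probe sets) and below every sham array for 5 (Smarca5, Kmt5a, Chd6, Kdm4c and Brd9; 2.22%). At 60 days they lay above for 10 (Chd4, Smarca4, Smarca2, Kat7, Kmt2d, Setd5, Prmt2, Hdac4, Hdac5 and Brd2; 4.78%) and below for 3 (Smarca5, Brd8 and Setd3; 3.42%).

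These counts lean on particular arrays. Without replicates 1 to 4 of Spi-21, 9 members were called at 21 days (10.8%, against 10.3% of all probe sets), all of them among the 25: Smarca5, Chd4, Kdm5c, Prmt3, Kmt5a, Setd5, Smarcc2, Chd8 and Kdm2a. Without replicates 5 to 8 of Spi-21, 37 were called (44.6%, against 30.2%). Without ShamC-21 replicate 1, 9 members were called lower at 21 days. Without replicates 1 and 4 of ShamC-60 together, 9 were called at 60 days (10.8%, against 6.17%), all of them among the 26. Those 9 are Smarca5, Kat7, Brd8, Hdac5, Chd4, Smarca4, Setd5, Kdm1a and Kmt2d. With ShamC-60 replicate 1 or 4 left out alone, 8 and 7 were called higher there. In dissected samples fewer cells of a type and less RNA per cell cannot be told apart.

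**Figure D1:**
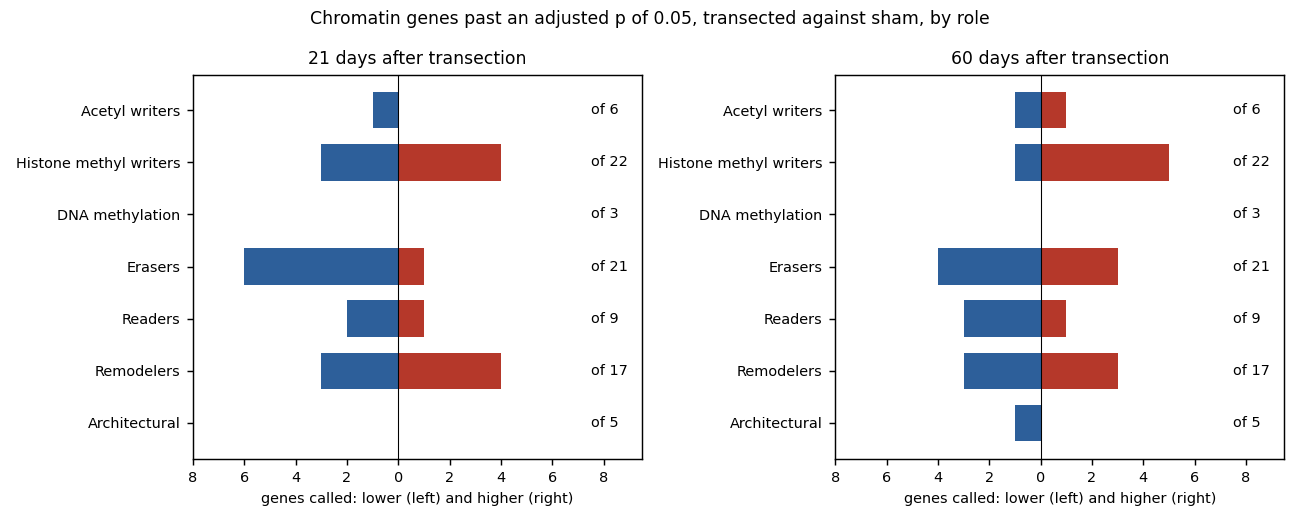
Number of chromatin genes past an adjusted p of 0.05 by role, lower to the left (blue) and higher to the right (red), for transected minus sham at 21 days (left panel) and 60 days (right panel), with the number measured in each role at the right edge. At 21 days erasers had 6 lower and 1 higher, and remodelers had 3 lower and 4 higher. Of all probe sets 11.2% were called lower and 11.3% higher at that day.

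**Figure D2:**
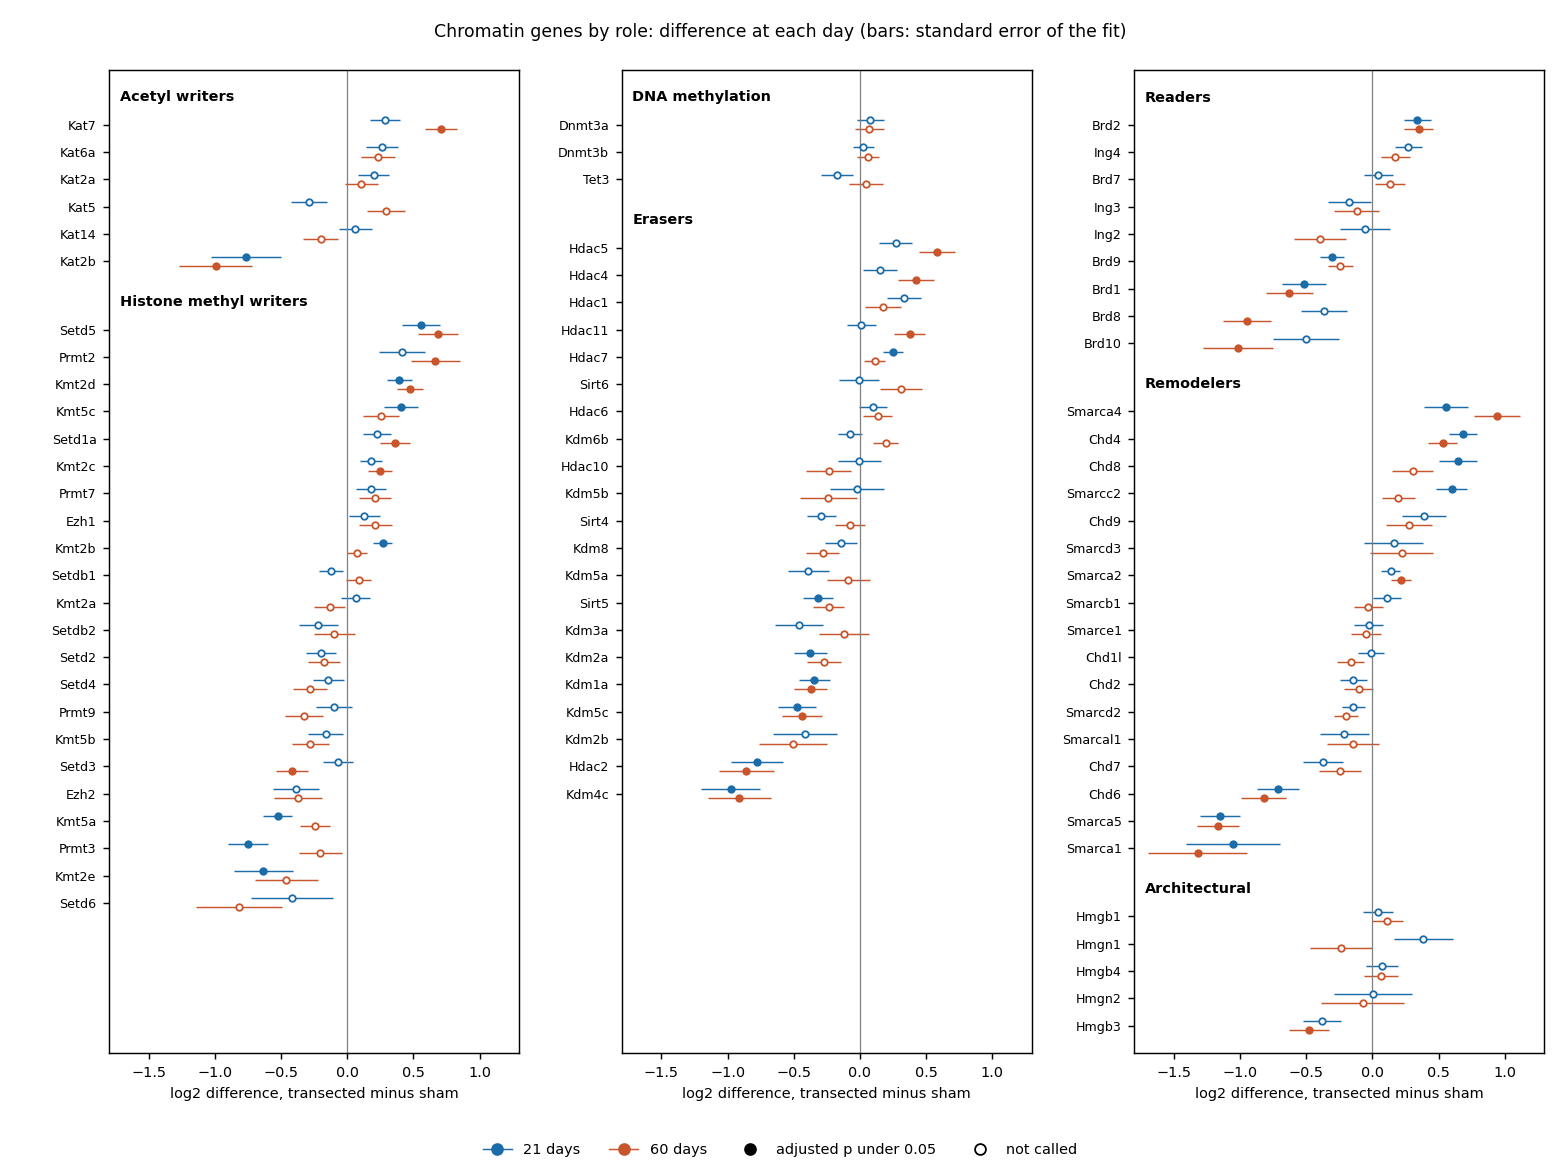
Log2 difference, transected minus sham, of each of the 83 chromatin genes at 21 days (blue) and 60 days (orange), grouped by role, with bars of 1 standard error of the limma fit and filled points for an adjusted p under 0.05. Smarca1 and Smarca5 lie farthest to the left at both days, and Smarca4 farthest to the right at 60 days.

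By their brightest probe sets the ATPases among the remodelers went both ways. Smarca5 and Smarca1, the motors of the ISWI complexes that space nucleosomes, fell at both days. Smarca4, the BRG1 motor of the BAF complexes, and Chd4, the motor of the NuRD complex that joins remodeling to deacetylation, rose at both days. The Smarca4 calls rest on its brightest set, and each Smarca1 call ended when certain single arrays were left out. In the CHD family Chd8 rose at 21 days and Chd6 fell at both days. Of 17 remodelers 4 were higher and 3 lower at 21 days (41.2% called, against 22.6% of all probe sets). At 60 days 3 were higher and 3 lower (35.3%, against 19.1% of all).

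Smarca5 had a log2 signal of 8.17, 8.42 and 9.32 (lowest, median and highest) in Spi-21 against 9.46, 9.69 and 9.94 in ShamC-21. It had 8.04, 8.41 and 8.67 in Spi-60 against 9.36, 9.89, 9.75, 9.34 and 9.42 in the 5 ShamC-60 arrays. All 16 transected arrays lay below every sham array of their day, and Spi-21 replicate 7 came nearest. The gene was 2.23-fold lower at 21 days (−1.16 ± 0.150, adjusted p = 1.04e-05) and 2.24-fold lower at 60 days (−1.17 ± 0.159, adjusted p = 1.6e-05). Its other probe sets were lower as well, with −0.54 and −0.41 at 21 days, both called, and −0.75, called, and −0.38, not called, at 60 days. No single array and no other setting ended the call of Smarca5.

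Smarca1 had 4.76, 6.07 and 7.00 in Spi-21 against 6.30, 7.05 and 8.06 in ShamC-21. Its Spi-60 values were 4.36, 5.95 and 6.33, against 6.73, 6.81, 6.67, 8.07 and 6.15 in ShamC-60. Its spread was wide and the groups overlapped at each day, with 5 and 6 of 8 transected arrays below every sham array. It was 2.08-fold lower at 21 days (−1.06 ± 0.355, adjusted p = 0.0328) and 2.50-fold lower at 60 days (−1.32 ± 0.375, adjusted p = 0.0149). Leaving out any of 5 arrays of the 21-day groups (Spi-21 replicates 1 and 2, ShamC-21 replicates 1, 2 and 4) ended the 21-day call, with an adjusted p of up to 0.104, as did the glial covariate. At 60 days leaving out ShamC-60 replicate 4, the highest sham array, gave an adjusted p of 0.0742.

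Chd4 had 7.19, 7.37 and 7.57 in Spi-21 against 6.55, 6.74 and 6.79 in ShamC-21. At 60 days the values were 7.07, 7.13 and 7.80 in Spi-60 against 6.75, 6.57, 6.89, 6.61 and 6.91 in ShamC-60. The groups did not overlap at either day. Chd4 was 1.60-fold higher at 21 days (0.68 ± 0.105, adjusted p = 8.33e-05) and 1.45-fold higher at 60 days (0.53 ± 0.111, adjusted p = 0.00146). Of its other probe sets, 0.93 and 0.47 at 21 days were both called, and of 0.58 and 0.23 at 60 days the first was.

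Smarca4 had 8.37, 8.60 and 8.83 in Spi-21 against 7.72, 8.03 and 8.36 in ShamC-21, a gap of little more than the rounding. In Spi-60 it had 8.19, 8.74 and 9.47, against 7.39, 8.14, 8.11, 7.47 and 8.04 in ShamC-60, again without overlap. It rose 1.47-fold at 21 days (0.56 ± 0.165, adjusted p = 0.017) and 1.92-fold at 60 days (0.94 ± 0.174, adjusted p = 0.000487). Its other probe sets did not follow: at 60 days they were −0.31 and 0.15, neither called, and the mean of its probe sets was not called at either day. Without Spi-21 replicates 1 to 4 the 21-day call ended (adjusted p = 0.0901). The other BAF motor, Smarca2, was 0.14 ± 0.0706 at 21 days, not called, and 0.21 ± 0.0745 at 60 days (adjusted p = 0.0432), where all 8 Spi-60 arrays lay above every ShamC-60 array. That call was lost in 11 of 27 fits without 1 array.

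Among the other BAF subunits Smarcc2, a core scaffold, had 5.75, 6.17 and 6.43 in Spi-21 against 5.37, 5.52 and 5.88 in ShamC-21. Spi-21 replicate 8 was the only transected array within the sham range. Smarcc2 was 1.51-fold higher at 21 days (0.60 ± 0.119, adjusted p = 0.00104) and had 0.20 ± 0.126 at 60 days (adjusted p = 0.283), and its second probe set gave −0.16 and −0.08. The core subunits Smarcb1 (0.11 and −0.03 at 21 and 60 days) and Smarce1 (−0.03 and −0.05) and the accessory Smarcd3 (0.16 and 0.22) were not called, and Smarcd2 (−0.15 and −0.20) was called over both days alone (−0.17, adjusted p = 0.0317). Smarcal1, an annealing helicase of stalled replication forks, was at −0.21 and −0.14, not called.

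Within the CHD family Chd8, which binds promoters of developmental genes, had 9.46, 9.64 and 10.42 in Spi-21 against 8.82, 9.21 and 9.28 in ShamC-21, without overlap. It was 1.57-fold higher at 21 days (0.65 ± 0.146, adjusted p = 0.00299) and had 0.30 ± 0.155 at 60 days (adjusted p = 0.166), where 7 of 8 Spi-60 arrays lay above every ShamC-60 array and replicate 8 lay below them all. Chd6, a less studied relative, went the other way. It had 6.06, 6.51 and 6.73 in Spi-21 against 6.99, 7.08 and 7.48 in ShamC-21, and 5.85, 6.55 and 6.92 in Spi-60 against 7.75, 7.09, 7.11, 7.57 and 6.88 in ShamC-60. Spi-60 replicate 7 alone reached the sham range. Chd6 was 1.64-fold lower at 21 days (−0.71 ± 0.161, adjusted p = 0.00286) and 1.77-fold lower at 60 days (−0.82 ± 0.170, adjusted p = 0.00138), while its dimmer probe set read 0.16 and 0.15, neither called. The 21-day call ended without Spi-21 replicates 1 to 4 (adjusted p = 0.0738) and the 60-day call without ShamC-60 replicates 1 and 4 (adjusted p = 0.0658). Chd9 (0.39 and 0.28) and Chd7 (−0.37 and −0.24), whose human gene is mutated in CHARGE syndrome, were called over both days alone. The Chd7 call rests on its brightest set (−0.31, adjusted p = 0.0251). Its other sets read 0.10 and 0.16 over both days, neither called. Chd2 (−0.15 and −0.11) and Chd1l (−0.01 and −0.16) were called in no comparison.

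**Figure D3:**
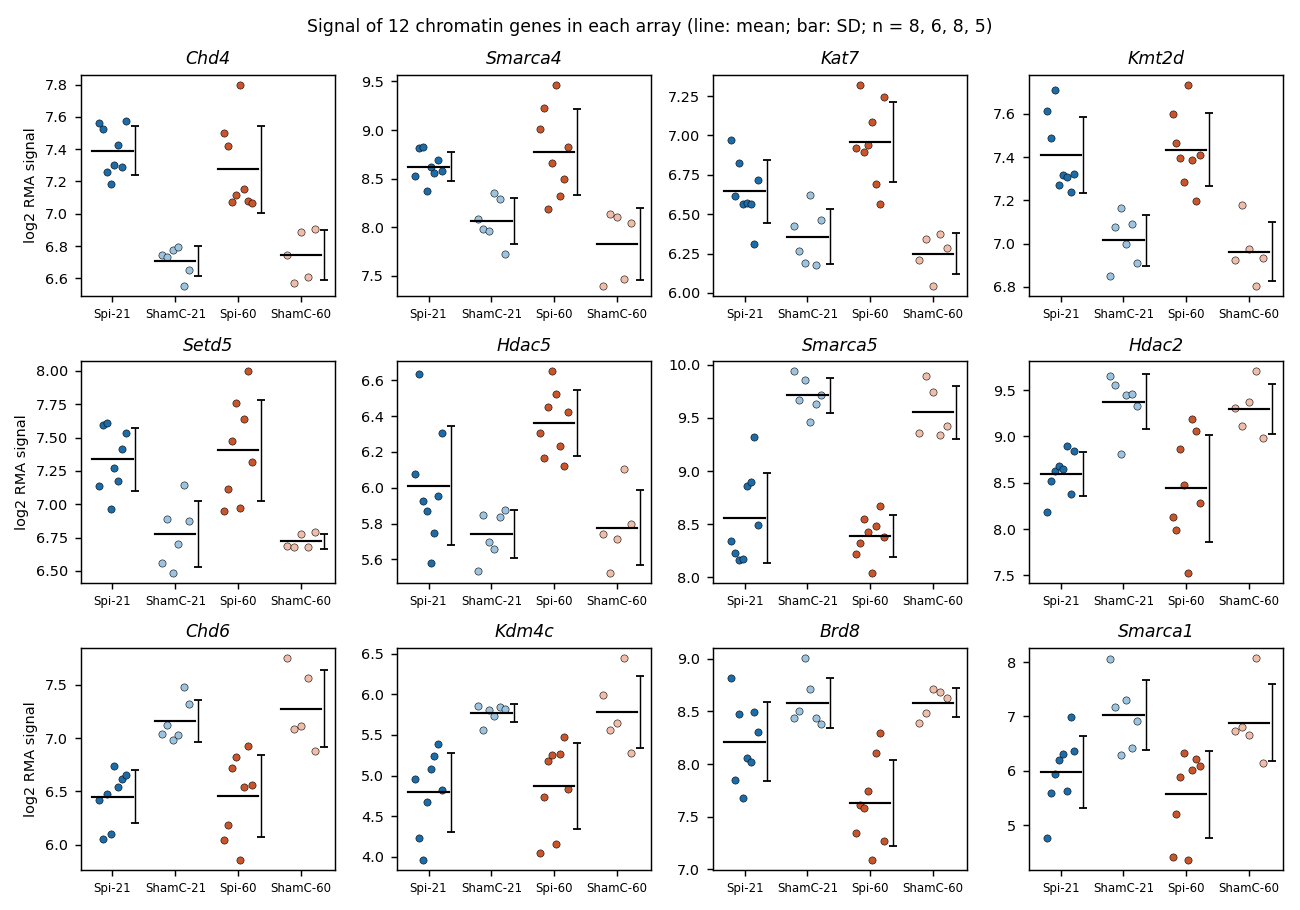
Log2 RMA signal of 12 chromatin genes in each array of Spi-21, ShamC-21, Spi-60 and ShamC-60, with the group mean as a line and the SD as a bar beside it (n = 8, 6, 8 and 5); each panel has its own vertical scale. Smarca5 lies below every sham array of its day in all transected arrays, and Chd4, Smarca4 and Kmt2d lie above.

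Acetyl writers were split between Kat7 and Kat2b. Kat7, the catalytic subunit of the HBO1 complex, rose at 60 days, and Kat2b, the PCAF enzyme that acetylates histone H3, fell at both days. Of 6 acetyl writers 0 were higher and 1 lower at 21 days (16.7% called, against 22.6% of all probe sets). There 4 had an unadjusted p under 0.05 in limma, as did 4700 of all 12913 probe sets. At 60 days 1 was higher and 1 lower (33.3%, against 19.1% of all).

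Kat7 had 6.57, 6.93 and 7.32 in Spi-60 against 6.21, 6.34, 6.04, 6.37 and 6.28 in ShamC-60, without overlap. It was 1.63-fold higher there (0.71 ± 0.119, adjusted p = 0.000182). At 21 days it had 6.31, 6.59 and 6.97 in Spi-21 against 6.18, 6.35 and 6.62 in ShamC-21, where the groups overlapped and the difference was 0.29 ± 0.112 (adjusted p = 0.0649). The call at 60 days held in all 27 fits without 1 array and in each other setting.

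Kat2b had 5.74, 6.56 and 7.17 in Spi-21 against 6.65, 7.28 and 7.80 in ShamC-21. Its Spi-60 values were 5.83, 6.57 and 7.55, against 8.84, 7.40, 7.25, 7.85 and 6.84 in ShamC-60, where replicate 1 stood highest. It fell by 0.77 ± 0.263 at 21 days (adjusted p = 0.0363) and by 1.00 ± 0.278 at 60 days (adjusted p = 0.0133). The groups overlapped at each day. Leaving out any of 8 arrays ended the 21-day call (Spi-21 replicates 1, 3 and 8, and each ShamC-21 replicate except 3), and leaving out ShamC-60 replicate 1 gave −0.69 at 60 days with an adjusted p of 0.075. A second probe set of Kat2b read −0.04 and 0.03.

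Of the remaining acetyl writers Kat6a, the MOZ enzyme, was at 0.26 and 0.23 and was called over both days alone (0.25 ± 0.0869, adjusted p = 0.0253). Kat2a, the GCN5 enzyme of the SAGA complex, was at 0.20 and 0.11, and Kat14 at 0.06 and −0.20, none called. Kat5, the TIP60 enzyme, was at −0.29 at 21 days and 0.29 at 60 days, neither called.

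Writers of histone methyl groups were the largest role, with 22 of the 83 genes. Setd5 and Kmt2d were called higher at both days, and no member of this role was called lower at each of them. Over the mean of both days 7 were called higher and 6 lower (59.1%, against 39.4% of all probe sets). At 21 days 4 were higher and 3 lower (31.8% called, against 22.6% of all probe sets, with 11.3% higher and 11.2% lower). At 60 days 5 were higher and 1 lower (27.3%, against 19.1% of all, with 10.2% higher and 8.92% lower).

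Kmt2d, which methylates histone H3 at enhancers, had 7.24, 7.32 and 7.71 in Spi-21 against 6.85, 7.04 and 7.17 in ShamC-21. At 60 days the values were 7.20, 7.40 and 7.74 in Spi-60 against 6.92, 7.18, 6.97, 6.80 and 6.93 in ShamC-60. The groups did not overlap at either day, though Spi-60 replicate 7 stood just above the highest sham array. Kmt2d was 1.31-fold higher at 21 days (0.39 ± 0.0919, adjusted p = 0.00373) and 1.39-fold higher at 60 days (0.47 ± 0.0970, adjusted p = 0.00135). Without Spi-21 replicates 1 to 4 its adjusted p at 21 days was 0.0688.

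Setd5, a SET-domain protein, had 6.96, 7.34 and 7.61 in Spi-21 against 6.48, 6.79 and 7.15 in ShamC-21. In Spi-60 it had 6.95, 7.40 and 8.00, against 6.69, 6.68, 6.77, 6.68 and 6.79 in ShamC-60, a narrow sham range below all transected arrays. It rose 1.47-fold (0.56 ± 0.144, adjusted p = 0.00716) and 1.60-fold (0.68 ± 0.152, adjusted p = 0.00266). Its other probe sets read 0.17 and 0.37 at 21 days and 0.26 and 0.10 at 60 days, none called.

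Other genes of the same enzyme family as Kmt2d were higher by less. Kmt2b was at 0.27 ± 0.0732 at 21 days (adjusted p = 0.0106) and 0.07 at 60 days, with a second probe set at −0.13 at 21 days. Setd1a was at 0.36 ± 0.111 (adjusted p = 0.0227) and Kmt2c at 0.25 ± 0.0875 (adjusted p = 0.0461) at 60 days, with 0.22 and 0.18 at 21 days. The Setd1a call ended without ShamC-60 replicate 1 or 4, with an adjusted p of up to 0.0852. Kmt2a was at 0.06 and −0.13, not called, and a dimmer set of it was called higher over both days (0.28, adjusted p = 0.0221). Kmt2e, a SET-domain relative, fell by 0.63 ± 0.227 at 21 days (adjusted p = 0.0438) and was at −0.46 at 60 days (adjusted p = 0.174).

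The histone H4 methyltransferases differed in direction at 21 days. Kmt5a, which adds the first methyl group, had 6.35, 6.51 and 6.80 in Spi-21 against 6.91, 6.99 and 7.51 in ShamC-21, without overlap. It was 1.44-fold lower there (−0.53 ± 0.107, adjusted p = 0.00131) and at −0.24 at 60 days (adjusted p = 0.129). Kmt5c, which adds further methyl groups, was at 0.41 ± 0.129 (adjusted p = 0.0252) and 0.26. Leaving out Spi-21 replicate 3 or ShamC-21 replicate 1 or 4 ended the Kmt5c call, with an adjusted p of up to 0.0762. Kmt5b was at −0.16 and −0.28, not called.

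Some members named with the methyl writers act mainly on other proteins. Prmt3, which methylates a protein of the small ribosomal subunit, had 4.71, 5.51 and 5.98 in Spi-21 against 5.97, 6.20 and 6.36 in ShamC-21. It was 1.68-fold lower at 21 days (−0.75 ± 0.151, adjusted p = 0.00115) and at −0.20 ± 0.160 at 60 days (adjusted p = 0.388). Only Spi-21 replicate 6 reached the sham range. Setd3, a methyltransferase of actin, had 9.97, 10.08 and 10.30 in Spi-60 against 10.64, 10.56, 10.46, 10.37 and 10.54 in ShamC-60, without overlap. Setd3 fell by 0.42 ± 0.120 there (adjusted p = 0.0158) and was at −0.07 at 21 days. Prmt2, an arginine methyltransferase, had 8.81, 9.03 and 9.20 in Spi-60 against 8.12, 8.73, 8.51, 7.83 and 8.69 in ShamC-60, also without overlap. It rose 1.59-fold (0.67 ± 0.185, adjusted p = 0.0127), a call that ended without ShamC-60 replicate 4 (adjusted p = 0.0636).

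Ezh2, the catalytic subunit of Polycomb repressive complex 2, had 5.53, 5.97 and 6.17 in Spi-21 against 5.94, 6.24 and 6.74 in ShamC-21. It was at −0.39 and −0.38 at 21 and 60 days, not called at either, and called over both days (−0.38 ± 0.125, adjusted p = 0.0172). Its relative Ezh1 was at 0.13 and 0.21 and was called in no comparison. Setd6 (−0.42 and −0.82) was called over both days alone, and Prmt7, Prmt9, Setd2, Setd4, Setdb1 and Setdb2 in none, with differences from −0.33 to 0.21.

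Genes of DNA methylation gave no call by their brightest probe sets. The methyltransferase Dnmt3a had 5.92, 6.30 and 6.62 in Spi-21 against 5.92, 6.19 and 6.41 in ShamC-21, and 6.03, 6.17 and 6.36 in Spi-60 against 6.12, 6.24, 6.20, 6.10 and 5.91 in ShamC-60. The groups overlapped and the differences were 0.08 ± 0.102 and 0.07 ± 0.108. Dnmt3b was at 0.03 ± 0.0780 and 0.06 ± 0.0824, and the oxidase Tet3, which starts the removal of methyl groups from DNA, at −0.17 ± 0.122 and 0.05 ± 0.129. None of the 3 passed in limma at either day or over both, where 22.6%, 19.1% and 39.4% of all probe sets did. Among the 3 genes 0 had an unadjusted p under 0.05, against 4700, 4341 and 6258 of all 12913 probe sets. The values of these 3 genes are of their brightest sets. A dimmer set of Tet3 was called higher at 21 days (0.27, adjusted p = 0.0498) and over both days (0.24, adjusted p = 0.0111).

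The erasers take off acetyl or methyl groups, and their calls went both ways. Of 8 Hdac genes 1 was higher and 1 lower at 21 days, where 11.3% of all probe sets were higher and 11.2% lower. At 60 days 3 Hdac genes were higher and 1 lower, where 10.2% of all probe sets were higher and 8.92% lower. Hdac2 was the lower one at each day. Of 10 Kdm genes 0 were higher and 4 lower at 21 days, and 0 higher and 3 lower at 60 days. An unadjusted p under 0.05 in limma was met by 6 and 5 of them, and by 4700 and 4341 of all 12913 probe sets. The Hdac and Kdm counts go by the brightest probe set of each gene. Dimmer sets of Kdm2a and Kdm5b were called higher, and no difference between the Hdac and Kdm families was tested.

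Hdac2, a catalytic subunit of the NuRD, SIN3 and CoREST complexes, had 8.18, 8.63 and 8.90 in Spi-21 against 8.81, 9.45 and 9.65 in ShamC-21. Its Spi-60 values were 7.52, 8.37 and 9.19, against 9.30, 9.12, 9.37, 9.70 and 8.99 in ShamC-60. At each day 6 of 8 transected arrays lay below every sham array and all 8 below the sham mean. Hdac2 was 1.72-fold lower at 21 days (−0.78 ± 0.197, adjusted p = 0.00633) and 1.81-fold lower at 60 days (−0.86 ± 0.207, adjusted p = 0.00512). Its close relative Hdac1 was at 0.34 ± 0.129 and 0.18 ± 0.136 and was called over both days alone (0.26 ± 0.0940, adjusted p = 0.0318). The Hdac1 set is dim, with a mean signal of 4.99 against 8.85 for Hdac2 and array medians of 6.31 to 6.41. Without Spi-21 replicates 1 to 4, or without ShamC-60 replicates 1 and 4, the Hdac2 calls ended with an adjusted p of 0.0759 and 0.0799.

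Hdac5, a class IIa deacetylase that shuttles between nucleus and cytoplasm, had 6.12, 6.37 and 6.65 in Spi-60 against 5.74, 5.52, 5.72, 6.11 and 5.80 in ShamC-60. The groups touched without overlapping, at ShamC-60 replicate 4. Hdac5 was 1.5-fold higher (0.58 ± 0.133, adjusted p = 0.0033), and at 21 days it was at 0.27 ± 0.126 (adjusted p = 0.119). Hdac4, of the same class, had 6.93, 7.10 and 7.44 in Spi-60 against 6.71, 6.59, 6.83, 6.70 and 6.77 in ShamC-60, without overlap. It was 1.34-fold higher (0.43 ± 0.137, adjusted p = 0.0291) and at 0.15 at 21 days. Leaving out any of 5 arrays (Spi-60 replicates 1 and 5, ShamC-60 replicates 1, 2 and 4) ended the Hdac4 call, with an adjusted p of up to 0.0666. Hdac7, also of that class, rose at 21 days (0.25 ± 0.0747, adjusted p = 0.018) and was at 0.11 at 60 days.

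Hdac11, the class IV enzyme, rose at 60 days (0.38 ± 0.117, adjusted p = 0.0241) and was at 0.01 at 21 days, with 4 of 8 Spi-60 arrays above every ShamC-60 array. Leaving out Spi-60 replicate 1 or ShamC-60 replicate 3, 4 or 5 ended that call, with an adjusted p of up to 0.0706. Hdac6, which deacetylates tubulin in the cytoplasm, was at 0.10 and 0.14, and Hdac10, a polyamine deacetylase, at −0.23 at 60 days, and neither was called at either day. Of the sirtuins, which need NAD, the mitochondrial desuccinylase Sirt5 fell at 21 days (−0.31 ± 0.113, adjusted p = 0.0465) and was at −0.24 at 60 days. The mitochondrial Sirt4 was at −0.29 (adjusted p = 0.0525) and −0.08, and the nuclear Sirt6 at −0.01 and 0.31, not called.

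Kdm4c, which removes methyl groups of silent chromatin from histone H3, was the demethylase with the largest difference at each day. It had 3.96, 4.89 and 5.39 in Spi-21 against 5.56, 5.82 and 5.86 in ShamC-21, without overlap. In Spi-60 it had 4.05, 5.01 and 5.48, against 5.99, 5.56, 5.65, 6.44 and 5.27 in ShamC-60, with 7 of 8 below every sham array. Kdm4c was 1.97-fold lower at 21 days (−0.98 ± 0.224, adjusted p = 0.00329) and 1.88-fold lower at 60 days (−0.91 ± 0.236, adjusted p = 0.00833). The 21-day call ended without Spi-21 replicates 1 to 4 (adjusted p = 0.0863) and the 60-day call without ShamC-60 replicates 1 and 4 (adjusted p = 0.17). All but 1 of the Kdm4c signals lie below the medians of the arrays, which run from 6.31 to 6.41; the exception is ShamC-60 replicate 4.

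Kdm5c, which removes methyl groups of active promoters, fell by 0.47 ± 0.142 at 21 days (adjusted p = 0.0183) and by 0.44 ± 0.150 at 60 days (adjusted p = 0.0403). The 21-day Kdm5c call ended without Spi-21 replicates 5 to 8 (adjusted p = 0.172). Kdm1a, the LSD1 enzyme of the CoREST complex, fell by 0.34 ± 0.119 (adjusted p = 0.0381) and by 0.37 ± 0.126 (adjusted p = 0.0372). All 8 transected arrays of Kdm1a lay below the sham mean at each day. Its 60-day call ended without any of 7 arrays (Spi-60 replicates 4, 6, 7 and 8, ShamC-60 replicates 2, 3 and 5), with an adjusted p of up to 0.0886. It ended also with the replicate block (adjusted p = 0.0683), with the glial covariate (adjusted p = 0.0532) and with repeated quantile normalization (adjusted p = 0.136). Kdm2a, which binds unmethylated CpG islands, gave probe sets of opposite direction at 21 days: −0.38 ± 0.124 for the brightest (adjusted p = 0.0302), −0.69 for another (adjusted p = 0.00455) and 0.42 for the remaining one (adjusted p = 0.00849). At 60 days these sets were at −0.27, not called, −0.54 (adjusted p = 0.0287) and 0.35 (adjusted p = 0.0328). The 21-day call of the brightest set ended without any of 5 arrays (Spi-21 replicates 3 and 6, ShamC-21 replicates 1, 4 and 5) and in 4 other settings, among them the glial covariate and repeated quantile normalization, with an adjusted p of up to 0.132. Kdm2b (−0.42 and −0.50) was called lower over both days alone. By their brightest sets Kdm3a, Kdm5a, Kdm5b, Kdm6b and Kdm8 were called in no comparison, with differences from −0.46 to 0.20.

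Dimmer sets of some of these demethylases were called higher. Kdm5b, which also removes methyl groups of active promoters, had 2 of its 4 dimmer sets called at 21 days, at 0.68 (adjusted p = 0.000477) and 0.32 (adjusted p = 0.0342), while its brightest set read −0.02. Over both days the same sets were at 0.50 (adjusted p = 0.000102) and 0.20 (adjusted p = 0.0399). The dimmer set of Kdm5a, of the same enzyme family, was called over both days (0.23, adjusted p = 0.0155), against −0.24 for its brightest set, which was not called.

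Among the readers Brd2 rose and Brd1 fell at both days, and Brd8 and Brd10 fell at 60 days. Of 9 readers 1 was higher and 2 lower at 21 days (33.3% called, against 22.6% of all probe sets). At 60 days 1 was higher and 3 lower (44.4%, against 19.1% of all).

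Brd8, a bromodomain subunit of the TIP60 acetyltransferase complex, had 7.09, 7.60 and 8.29 in Spi-60 against 8.39, 8.48, 8.71, 8.69 and 8.63 in ShamC-60, without overlap. It was 1.93-fold lower there (−0.95 ± 0.181, adjusted p = 0.000652). At 21 days it averaged 8.21 ± 0.378 in Spi-21 (SD, n = 8) against 8.58 ± 0.236 in ShamC-21 (SD, n = 6), where the groups overlapped and the difference was −0.37 ± 0.171 (adjusted p = 0.121). Brd10, another bromodomain gene, had 5.25, 6.35 and 7.02 in Spi-60 against 7.36, 7.26, 7.14, 7.20 and 6.86 in ShamC-60. Spi-60 replicate 4 alone reached the sham range, and Brd10 was 2.02-fold lower (−1.01 ± 0.267, adjusted p = 0.00898). At 21 days it was at −0.50 (adjusted p = 0.149), while its dimmer probe set was called lower there (−1.03, adjusted p = 0.0348).

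Brd1, a scaffold of the HBO1 and MOZ acetyltransferase complexes, had 6.33, 6.98 and 7.36 in Spi-21 against 7.20, 7.46 and 7.60 in ShamC-21. At 60 days the values were 6.10, 6.92 and 7.28 in Spi-60 against 7.41, 7.15, 7.55, 7.95 and 7.07 in ShamC-60. The groups overlapped by 1 and 2 transected arrays. Brd1 fell by 0.52 ± 0.167 (adjusted p = 0.0271) and by 0.63 ± 0.177 (adjusted p = 0.0141). Its 21-day call ended without any of 4 arrays (Spi-21 replicate 1, ShamC-21 replicates 1, 2 and 6) and its 60-day call without ShamC-60 replicate 4, with an adjusted p of up to 0.0609 and 0.0692. The 21-day call ended also with the glial covariate (adjusted p = 0.0516), with repeated quantile normalization (adjusted p = 0.0525) and without Spi-21 replicates 1 to 4 (adjusted p = 0.261). The 60-day call ended also without ShamC-60 replicates 1 and 4 (adjusted p = 0.186).

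Brd2, a BET protein that binds acetylated histones, had 6.58, 6.87 and 7.19 in Spi-21 against 6.35, 6.61 and 6.70 in ShamC-21. In Spi-60 it had 6.72, 6.89 and 7.18, against 6.33, 6.67, 6.47, 6.60 and 6.62 in ShamC-60, without overlap at 60 days. It rose 1.27-fold at each day (0.34 ± 0.103, adjusted p = 0.0192, and 0.35 ± 0.108, adjusted p = 0.0242). Without ShamC-21 replicate 1 the 21-day call ended (adjusted p = 0.0584), and without ShamC-60 replicate 1 or 3 the 60-day call, with an adjusted p of up to 0.0879. Brd9, a subunit of a noncanonical BAF complex, fell at 21 days (−0.30 ± 0.0902, adjusted p = 0.017), with all 8 Spi-21 arrays below every ShamC-21 array, and was at −0.24 at 60 days (adjusted p = 0.0698). The 21-day Brd9 call ended with repeated quantile normalization and without Spi-21 replicates 1 to 4, with an adjusted p of up to 0.128. Ing4, a subunit of the HBO1 complex, was called higher over both days alone (0.22 ± 0.0742, adjusted p = 0.0193), and Brd7, Ing2 and Ing3 were called in no comparison.

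Of the 5 architectural proteins, which bend DNA or bind nucleosomes, 0 were called at 21 days (against 22.6% of all probe sets). Hmgb3 alone was called at 60 days (20%, against 19.1% of all) and over both days (20%, against 39.4% of all). It had 6.30, 7.25 and 7.34 in Spi-60 against 7.31, 7.54, 7.62, 7.81 and 7.37 in ShamC-60, with 6 of 8 Spi-60 arrays below every sham array. Hmgb3 fell by 0.48 ± 0.151 at 60 days (adjusted p = 0.0262) and was at −0.38 ± 0.143 at 21 days (adjusted p = 0.0542). The 60-day call ended without Spi-60 replicate 1 or ShamC-60 replicate 3 or 4, with an adjusted p of up to 0.0955. Hmgb1, also released as a danger signal from injured cells, had 7.85, 8.21 and 8.88 in Spi-60 against 8.22, 8.31, 8.27, 8.26 and 8.08 in ShamC-60, and differences of 0.04 and 0.11 at 21 and 60 days. Hmgb4 was at 0.07 and 0.06, Hmgn1 at 0.38 and −0.24, and Hmgn2 at 0.01 and −0.07, none called.

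Most members had a difference of the same sign at both days. Of 83 genes 73 had the same sign at 21 and 60 days (88%, against 77.4% of all probe sets), and Pearson's r across the members was 0.849, with 0.775 across all probe sets. The days have separate sham groups, and genes of the same arrays are not independent replicates. At both days 5 genes were called higher (Chd4, Kmt2d, Setd5, Smarca4 and Brd2) and 9 lower (Smarca5, Smarca1, Kdm4c, Kat2b, Hdac2, Chd6, Brd1, Kdm5c and Kdm1a), and 0 were called in opposite directions. Another 11 were called at 21 days alone and 12 at 60 days alone. For none of these was the difference between the days shown.

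**Figure D4:**
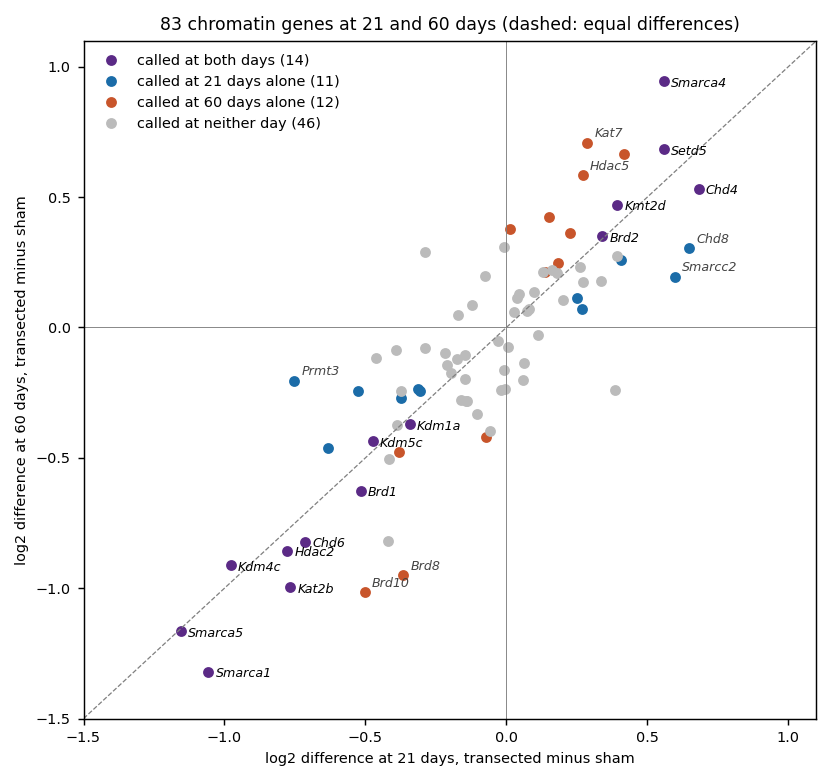
Log2 difference, transected minus sham, of the 83 chromatin genes at 21 days (horizontal) against 60 days (vertical), coloured by the day at which each was called, with a dashed line of equal differences. The 14 genes called at both days lie in the lower left and upper right, and Prmt3, Smarcc2, Brd8 and Kat7 lie away from the line.

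The test of the 60-day minus the 21-day difference called 0 of 83 members in limma, and 0% of all probe sets. An unadjusted p under 0.05 was met by 8 members and by 905 of all 12913 probe sets. The smallest p values on the higher side were those of Kat5 (0.58 ± 0.195, adjusted p = 0.627), Kat7 (0.42 ± 0.163) and Prmt3 (0.55 ± 0.220). Those on the lower side were Brd8 (−0.58 ± 0.249, adjusted p = 0.654), Smarcc2 (−0.40 ± 0.173) and Setd3 (−0.35 ± 0.166). Without Spi-21 replicates 1 to 4 Setd3 passed (−0.64 ± 0.113, adjusted p = 0.00565), and no other member did.

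Spi-60 minus Spi-21 also called 0 members (0.0852% of all probe sets, 0.0465% higher and 0.0387% lower, and 0.0921% of genes by their brightest set). There 13 members and 1706 of all 12913 probe sets had an unadjusted p under 0.05 in limma. Hdac11 (0.36 ± 0.102, adjusted p = 0.12), Kat5 (0.43 ± 0.124) and Smarca2 (0.21 ± 0.0654) led the higher side, and Brd8 (−0.58 ± 0.159, adjusted p = 0.107), Hdac7 (−0.19 ± 0.0691) and Setd4 (−0.31 ± 0.111) the lower side. Without Spi-21 replicates 1 to 4 this comparison called 8 members, with Hdac5, Prmt2 and Hdac11 higher and Setd3, Setd4, Smarce1, Smarca5 and Brd8 lower. Without Spi-21 replicate 4 it called Brd8 alone (adjusted p = 0.0481), and without replicates 5 to 8 Kmt2a alone (−0.42 ± 0.0940, adjusted p = 0.0466). ShamC-60 minus ShamC-21 called 0 members and 0% of all probe sets. It gave an unadjusted p under 0.05 for 513 of all 12913 probe sets and for 1 member, Hmgn1 (0.54 ± 0.248, adjusted p = 0.999). Its next members were Smarcd2 (0.17) and Smarca2 (0.13) on the higher side and Kdm6b (−0.20), Brd9 (−0.20) and Kmt2c (−0.15) on the lower side. With array weights, or with trended and robust moderation, each of these 3 comparisons called 0 members.

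Of the 83 members 24 had more than 1 probe set, and these often disagreed. At 21 days 11 of them were called by the brightest probe set, and all other sets had the same sign in 7. Another set was called the same way in 5 (Chd4, Chd8, Smarca5, Kmt2e and Kdm2a) and the opposite way in 1 (Kdm2a). At 60 days 10 were called, with the same sign throughout in 6 and another set called the same way in 2, Chd4 and Smarca5. Chd8, whose second set read 0.31 at 21 days (adjusted p = 0.0469), was thus borne by both sets there, and Chd6, Smarca4, Smarcc2 and Kat2b rest on their brightest set.

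**Figure D5:**
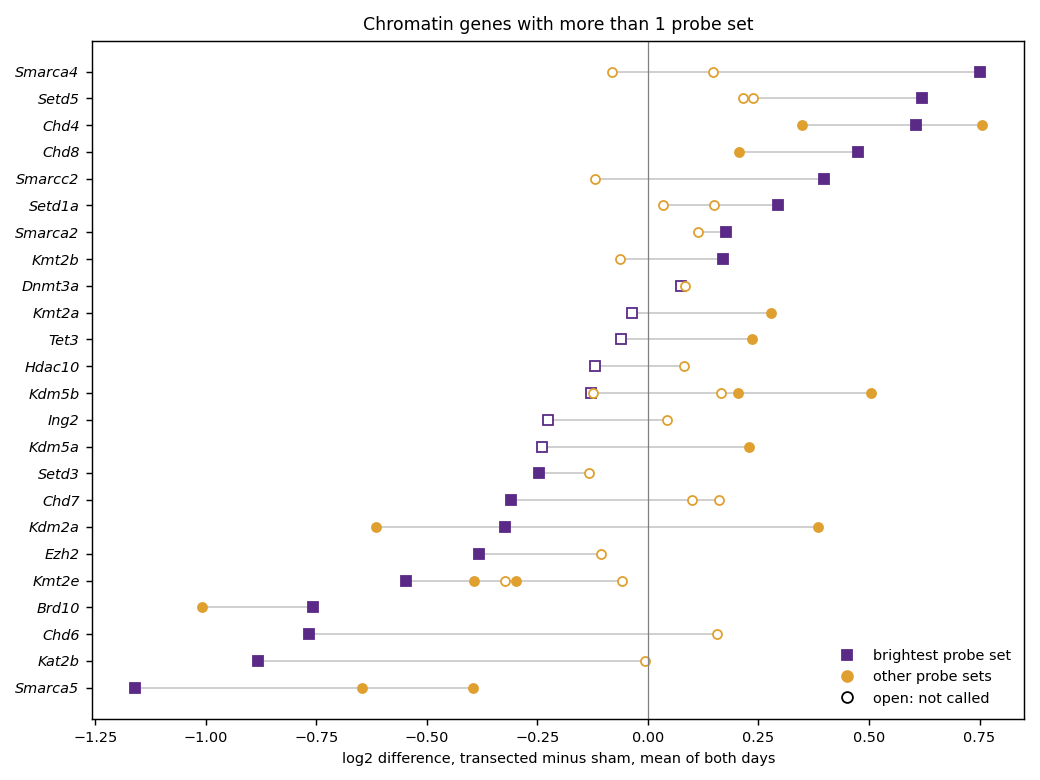
Log2 difference over the mean of both days, transected minus sham, of every probe set of the 24 chromatin genes with more than 1, with squares for the brightest set, circles for the others and open marks for sets that were not called. All sets of Smarca5 lie left of 0 and all sets of Chd4 right of 0, while Chd6 and Smarcc2 have sets on both sides.

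Partners of these enzymes outside the 16 families were called in both directions. Of 75 measured subunits and modifiers 7 were higher and 7 lower at 21 days (18.7%), and 13 higher and 6 lower at 60 days (25.3%), against the 22.6% and 19.1% of all probe sets. Called genes with the smallest p are named here, and no other probe set or fit without an array is given for them. Arid1a, the DNA-binding subunit of the BAF complex, rose (0.77 ± 0.142, adjusted p = 0.000527, and 0.95 ± 0.150, adjusted p = 9.17e-05), as did the BAF subunit Dpf2 (0.27 at each day). Arid1b, the alternative to Arid1a, fell (−0.70 and −0.88). Pbrm1, the defining subunit of the PBAF form, fell as well (−0.91 and −1.16), with all 8 transected arrays below every sham array at each day. This held for 2.22% of all probe sets at 21 days and 3.42% at 60 days. Ruvbl2, an ATPase of the INO80 and TIP60 complexes, rose (0.52 and 0.87), and Mbd1, which binds methylated DNA, fell (−0.72 and −0.57). Eed, a core subunit of Polycomb repressive complex 2 beside Ezh2, fell at 21 days (−0.62 ± 0.157, adjusted p = 0.00629), and Padi2, which turns arginine of histones into citrulline, rose at 60 days (0.56 ± 0.0940, adjusted p = 0.000185).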

How the data were processed

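Each deposited value is a log2 signal of a probe set that the authors made with RMA, per the submitters' processing notes; RMA corrects background, equalises array distributions and summarises probes, and its version is not given in the sources used here. Values of 27 arrays ran from 0 to 14.6, no 2 arrays were identical, and correlations between arrays ran from 0.825 to 0.989. Arrays carry no read depth, so their number and spread limit the precision. After 6 control probe sets were dropped, 12913 were tested: 11880 name 1 gene in the platform annotation, 320 several and 713 none. Symbols are those of the annotation.

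Differences of log2 signal were fitted with limma 3.58.1 (lmFit and eBayes, R 4.3.3) on the 4 groups with no covariate, and p-values were adjusted over all 12913 probe sets by Benjamini and Hochberg for each of 6 comparisons. A gene is called at an adjusted p under 0.05, and ± after a difference is its standard error. Quality measures and marker means were compared by two-sided exact permutation tests. The rule for named members takes up to 12 per direction with the smallest p among those called in each comparison of transected and sham arrays, 3 per direction with the smallest p between days, every Hdac, Sirt, Dnmt, Tet, Ezh, Hmgb, Hmgn and Smarc gene, and members whose probe sets disagree, with ranges over arrays for 6 per direction and day. Further names and ranges were added after their values were seen. Members and lists were chosen with earlier results of these data known.

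The fit was tested on data simulated from each probe set's mean and residual spread over all 27 arrays. In these 200 of 12913 probe sets were shifted in Spi-21. The 21-day comparison recovered 1% of changes of 0.3 on the log2 scale, 52.5% of 0.5, 93.5% of 1 and 100% of 2. In the measured data 2917 probe sets were called at 21 days. The adjustment is stricter when few probe sets change, so these shares do not give the recovery in the measured data. The alternatives were array weights, trended and robust moderation, median centring, repeated quantile normalization, a filter on dim probe sets, the mean of a gene's probe sets or another probe set, the groups of a comparison alone, a replicate block, a glial covariate, a stricter threshold and leaving out arrays. Same-numbered transected and sham arrays correlated from -0.309 to 0.331 in their deviations, and the numbers were not used as pairs in the main fit. Such correlations cannot show whether same-numbered arrays shared a batch.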

Additional observations from a re-analysis of the deposited data

Results flagged for a closer look

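Within single groups of arrays, 4 values of members stood far from the rest of their group, of 140 groups of 35 named members examined (2.86%); chance alone marks about 1 group in 20. Hdac4 read 6.12 in Spi-21 replicate 7, with 6.80 as the nearest other array of its group. Kmt5a read 6.52 in ShamC-60 replicate 4, with 7.00 as the nearest, and that array also held the lowest mean of motor neuron markers. Chd8 read 8.82 in ShamC-21 replicate 1, with 9.16 as the nearest. Setd3 read 10.51 in ShamC-21 replicate 3, the highest of its group, with 10.33 as the nearest.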

How the results depend on the processing

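The number of arrays limits these results, and several counts move with a few of them. In 27 fits without 1 array, the members called ran from 17 to 31 at 21 days (8 to 14 higher, 9 to 17 lower), 18 to 26 at 60 days (7 to 13 higher, 10 to 13 lower), and 0 to 1 for Spi-60 minus Spi-21 (0 to 1 lower). Without Spi-21 replicates 1 to 4, 9 were called at 21 days (4 higher, 5 lower), 1 in the difference between days (lower) and 8 in Spi-60 minus Spi-21 (3 higher, 5 lower). Without replicates 5 to 8, 17 were higher at 21 days and 1 was lower in Spi-60 minus Spi-21. Without ShamC-60 replicates 1 and 4, 9 were called at 60 days (6 higher, 3 lower). At a threshold of 0.01, 11 were called at 21 days (5 higher, 6 lower) and 12 at 60 days (6 higher, 6 lower). These are 13.3% and 14.5% of the members, against 9.61% and 8.29% of all probe sets. Repeated quantile normalization gave 14 higher and 9 lower at 21 days, beside 10 and 15. At 21 days another probe set turned the sign of Smarcc2 (-0.16), Kmt2b (-0.13), Chd6 (0.16) and Kdm2a (0.42). At 60 days another set did so for Smarca4 (-0.31), Setd1a (-0.02), Chd6 (0.15) and Kat2b (0.025). Over both days this held for Smarca4 (-0.082), Smarcc2 (-0.12) and Chd6 (0.16). Of members called over both days but not followed singly, it held for Chd7 (0.10 and 0.16), Kdm2a (0.39) and Kmt2b (-0.06). The cause was not tested. Under the other alternatives none of the 70 calls of single members that were followed turned sign; values of members that were not called were not followed. Over these 70 calls, 1826 of 1890 values without 1 array and 790 of 870 values of other settings kept the call. The main fit did not pair arrays by replicate number. Same-numbered arrays correlated from -0.309 to 0.331, which cannot show whether they shared a batch. With a replicate block 31 members were called at 21 days (14 higher, 17 lower), 27 at 60 days (14 higher, 13 lower) and 49 over both days. The shares of members were 37.3%, 32.5% and 59%, against 25%, 23.8% and 41.4% of all probe sets.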
